A study of Mus musculus with 27 samples.

Results

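Livers of mice on a weekly alternating diet were compared, gene by gene, with livers of mice on the same medium fat diet without interruption. The 7 mice of the intermittent diet group (INT) and the 7 mice of the medium fat group (MF) were taken by the diet in their sample labels, and they are 14 of the 27 mice of the series. The other mice received a control diet (AIN-93W, called C, n = 7) or a calorie restriction of 30% (CR, n = 6). Their means are given for a few genes only. All were male C57BL/6J mice, an inbred strain, aged 12 months, whose diets began at 9 weeks of age after 2 weeks of acclimatization on AIN-93G. MF-fed mice ate a diet with 25% of its energy from fat ad libitum. INT-fed mice alternated every week between that diet ad libitum and a calorie restriction of 40%, and were sacrificed during an ad libitum week. Thus both groups ate the same diet at the end. Every mouse of the 14 was mock-treated by gavage of 0.5% carboxymethyl cellulose after 4 hours without food, and was fasted for another 6 hours before sacrifice. Liver RNA of each mouse was hybridised to 1 Affymetrix Mouse Gene 1.1 ST array, and values are log2 intensities, so that a difference of 1 is a 2-fold difference.

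The liver takes up, stores and secretes fat, makes bile acids from cholesterol, clears drugs and hormones through cytochrome P450 enzymes, and supplies the acute phase proteins of the blood. Fat is stored in hepatocytes as droplets coated with perilipins and CIDE proteins, and such droplets accumulate in obese mice. Many hepatic genes also follow the hour of day, the pattern of growth hormone release, which differs between the sexes, and food intake, and resident and recruited macrophages contribute their own RNA to the tissue.

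The array values were alike over most genes. Medians of the 14 arrays lay between 5.21 and 5.26 log2 units, and Pearson's r between pairs of them lay between 0.983 and 0.992. Of the hepatocyte markers, all 8 tested lay above the intensity of 20, the background limit used here, in every mouse, with a median difference of 0.02 and none at an unadjusted p under 0.05, which bears out the labelled tissue. Arrays of replicates 1 to 4 and of replicates 5 to 7 were treated as separate sets, with interquartile ranges of 3.62 to 3.70 over 8 arrays and 3.64 to 3.76 over 6 arrays. The labels do not name these sets as batches, and each holds mice of both diets.

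No gene differed between INT- and MF-fed mice at a Benjamini-Hochberg adjusted p under 0.05 in limma, which was fitted over the 27 arrays and 13603 genes (0 of 13603, 0%). The lowest adjusted p was 0.098, for Nckipsd. At an unadjusted p under 0.05, called nominal from here on, there were 1479 genes (10.9%), of which 660 (4.85%) had a higher and 819 (6.02%) a lower mean in INT-fed mice. By the one-way test with Tukey comparisons that the methods name for other measurements, 356 genes had an unadjusted p under 0.05 and 0 remained after adjustment. When each array was centred on its median, the split by direction turned to 1160 higher and 493 lower, and the median difference of all genes moved from 0.00 to 0.03. Cyclic loess gave 769 and 779. The balance of higher and lower genes therefore depended on the scaling, and all values below are differences with their standard errors (SE), not calls.

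**Figure D1:**
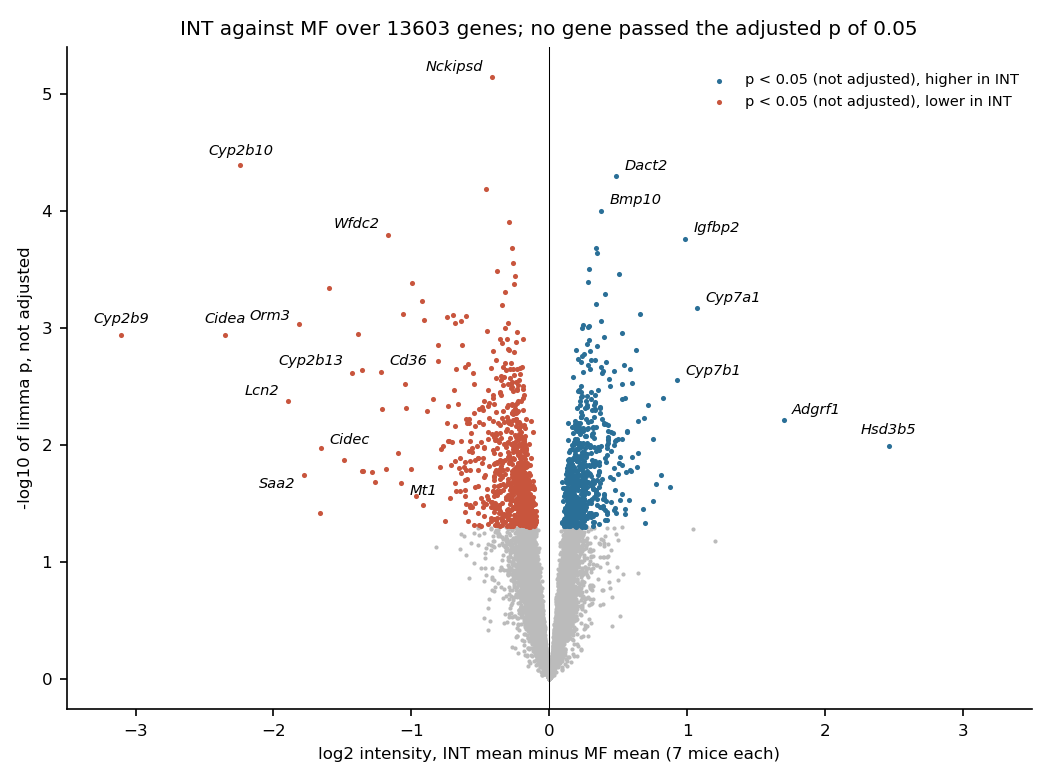
Difference of the mean log2 intensity between 7 INT- and 7 MF-fed mice (horizontal) against the negative log10 of the unadjusted limma p (vertical) for 13603 genes. Large differences reach -3.10 for Cyp2b9 on the left and 2.46 for Hsd3b5 on the right, while the smallest p belongs to Nckipsd at -0.42.

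Most of the large differences were lower values in INT-fed mice. Means were at least 2-fold apart for 32 genes, with 27 genes lower (0.198% of all tested) and 5 higher (0.0368%) in INT. The 27 included cytochrome P450 genes (Cyp2b9, Cyp2b10, Cyp2b13 and Cyp2a22), genes of lipid droplets and fat uptake (Cidea, Cidec, Plin4, Cd36 and Mogat1) and acute phase genes (Lcn2, Orm2, Orm3 and Saa2). They also included the macrophage genes Mmp12 and Gpnmb, the cell cycle inhibitor Cdkn1a and the metallothionein Mt1. The remaining genes were in none of these groups: B430212C06Rik (-1.60), Ly6d (-1.49), Themis (-1.39), Tubb2a (-1.36), Sprr1a (-1.35), Wfdc2 (-1.17), Cntnap1 (-1.06), Lgals1 (-1.05), 9030619P08Rik (-1.04) and Slc22a27 (-1.0). The 5 were the steroid dehydrogenase Hsd3b5, the adhesion receptor Adgrf1, the bile acid enzyme Cyp7a1, the organic anion transporter Slco1a1 and Serpina4-ps1. Without MF replicate 4, Slco1a1 differed by 0.53, Serpina4-ps1 by 0.70 and Sprr1a by -0.84, all then less than 2-fold. These genes are named by size, so that their size is no result of a test. In a whole liver, fewer cells of a type and less RNA per cell cannot be told apart.

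Few genes separated the diets mouse by mouse, and most of those differed little. In 12 genes (0.0882%) all 7 INT-fed mice lay below all 7 MF-fed mice, and in 2 genes (0.0147%) they lay above. Among 13603 genes some separate 7 mice from 7 by chance, and these counts were not tested against that. Nckipsd, which encodes a partner of the adaptor protein Nck in the actin cytoskeleton, ranged from 5.58 to 5.87 (median 5.67) in INT-fed and from 5.94 to 6.33 (median 6.11) in MF-fed mice. Its difference was -0.42 (SE 0.08). Raet1e, a ligand of the NK cell receptor NKG2D, ranged from 6.12 to 6.67 (median 6.31) against 6.68 to 7.69 (median 7.24), a difference of -0.91 (SE 0.24, adjusted p = 0.324). Raet1e was the only one of the 14 to differ by more than 1.5-fold. Siae, a sialic acid esterase, was lower (-0.38), and so was Atp6ap1, an accessory subunit of the vacuolar proton pump (-0.19). The other genes below were Iqcc (-0.29), Hexim2 (-0.25), Snapc5 (-0.26), Zswim7 (-0.26), Dusp14 (-0.30), Mb21d2 (-0.20), Ufsp2 (-0.10) and Snx32 (-0.19). Csrp2, a LIM domain protein (0.29), and Arl1, a small GTPase of the Golgi (0.15), were the 2 genes above.

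Among genes whose means differed by at least 1.5-fold, the 12 of smallest p in each direction spanned adjusted p of 0.224 to 0.355. Besides the genes above, the higher ones held Igfbp2, which had the smallest p of them, Cyp7b1 and Fabp5, all described further below. The others included Adgrf1 (1.70, SE 0.57), Slco2a1 (0.66, SE 0.17), the transcription factor of BMP signalling Smad9 (0.63, SE 0.18) and the vasopressin receptor Avpr1a (0.72, SE 0.23). They also held the sodium channel subunit Scnn1a (0.64), the retinol dehydrogenase family gene Rdh16f2 (0.60), the ubiquitin ligase subunit Fbxo21 (0.59) and Nup62cl (0.82). In each of these genes the lowest mouse was MF-fed. The lower ones held Wfdc2, which ranged from 5.11 to 6.09 (median 5.62) in INT-fed and from 5.70 to 7.78 (median 6.95) in MF-fed mice. Others were Cyp46a1, which hydroxylates cholesterol (-0.92, SE 0.24), Rcan2, an inhibitor of calcineurin (-1.0, SE 0.25), Prg4, a secreted proteoglycan (-0.68, SE 0.18), and Capg, an actin-capping protein of macrophages (-0.60, SE 0.16). Cntnap1 (-1.06), Slc16a6 (-0.70), Uap1l1 (-0.74), Zfp991 (-0.64) and B430212C06Rik (-1.60) completed them, the last under the intensity of 20 in 7 INT-fed and 2 MF-fed mice. With Nckipsd and Cyp2b10, Dact2, an inhibitor of TGF-beta signalling, had the smallest p of all genes, at 6.63 to 6.96 (median 6.77) in INT-fed and 5.99 to 6.70 (median 6.31) in MF-fed mice (0.48, SE 0.10, adjusted p = 0.224).

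**Figure D2:**
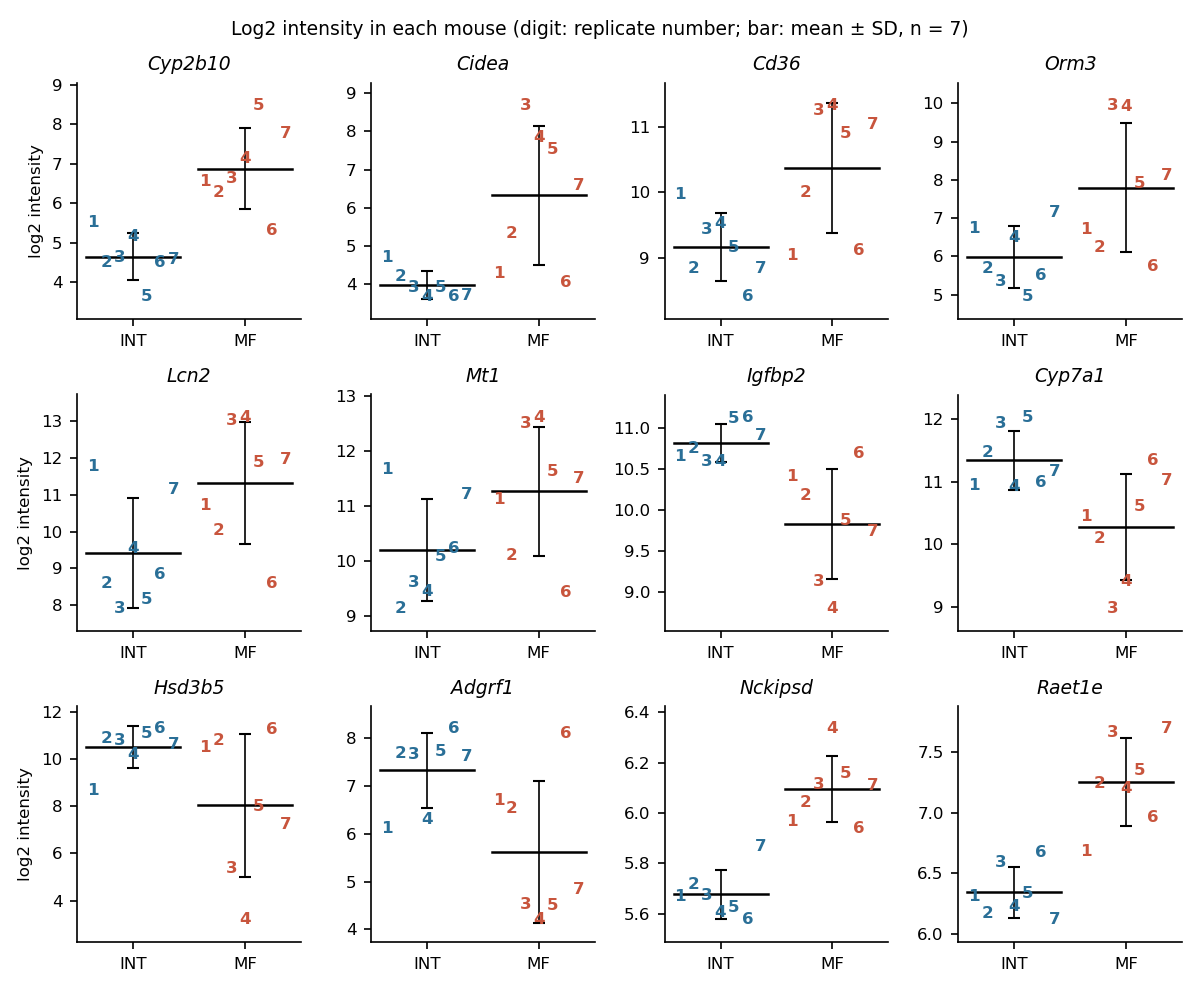
Log2 intensity of 12 genes in each of the 7 INT- and 7 MF-fed mice, where a digit is a mouse's replicate number and bars are the mean ± SD. For most genes MF replicates 3, 4, 5 and 7 lie away from the INT-fed mice and MF replicate 6 lies among them, whereas Nckipsd and Raet1e keep the diets apart.

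In genes with large differences, some MF-fed mice lay outside the INT range far more often than others. Of the 27 genes at least 2-fold lower in INT, MF replicates 3 and 4 each exceeded all INT-fed mice in 27 genes, MF replicate 7 in 24 and MF replicate 5 in 23. MF replicate 2 exceeded them in 13, MF replicate 1 in 5 and MF replicate 6 in 0. MF replicate 4 was the highest MF-fed mouse in 20 of these genes, and MF replicate 3 in 6. In the 5 genes higher in INT, MF replicates 3, 4 and 5 lay below all INT-fed mice in 5 genes and MF replicate 6 in 0. The genes were chosen for a large difference between the same mice, so that these counts describe them and test nothing. The root mean square distance of a mouse to the mean of the other mice of its diet was taken over all 13603 genes. It was 0.323 for MF replicate 4, 0.279 for MF replicate 6 and 0.263 for MF replicate 3, against 0.185 to 0.226 in the INT-fed mice. MF replicates 1 and 2 lay within that INT range, at 0.219 and 0.216. MF replicates 5 and 7 lay below it, at 0.172 and 0.178.

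The number of genes at an unadjusted p under 0.05 followed the same mice. It was 962 when MF replicate 3 was left out, 872 when MF replicate 4 was, and 2123 when MF replicate 6 was. Without any 1 of the other mice it lay between 1209 and 1766. Without MF replicate 6, 29 genes (0.213%) passed the adjusted p of 0.05, 17 higher (0.125%) and 12 lower (0.0882%) in INT, and no other mouse left out gave a call. Among the 17 were Igfbp2 (1.13, adjusted p = 0.036), Cyp7a1 (1.25, adjusted p = 0.043), Slco2a1, a prostaglandin transporter (0.77, adjusted p = 0.042), Klb, the co-receptor for FGF15 and FGF21 (0.67, adjusted p = 0.025) and Bmp10, which acts on BMP receptors of endothelium (0.41, adjusted p = 0.039). Among the 12 were Cyp2b10 (-2.50, adjusted p = 0.025), Nckipsd (-0.44, adjusted p = 0.025), Wfdc2, a secreted protease inhibitor (-1.36, adjusted p = 0.025), and Orm3 (-2.16, adjusted p = 0.042). Nothing in the labels sets MF replicate 6 apart, so the values over all mice stand as the result.

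**Figure D3:**
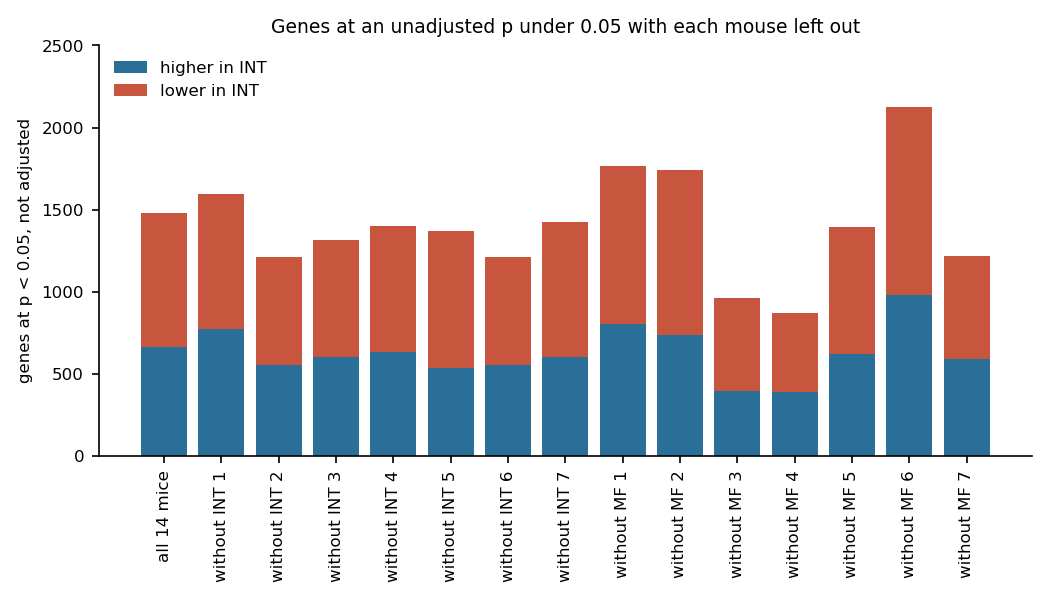
Number of genes at an unadjusted p under 0.05, stacked by direction, with all 14 mice and with each mouse left out. The bar is shortest without MF replicate 4 (872 genes) and tallest without MF replicate 6 (2123 genes).

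Genes of the lipid droplet surface had lower means in INT-fed mice. Of 16 members tested, 15 had a lower mean, against 51% of all genes, and 8 were nominally lower, against 6.02% of all genes, with none higher. Their median difference was -0.25, beside 0.00 for all genes tested. Cidea, which promotes the fusion of droplets, ranged from 3.68 to 4.69 (median 3.92) in INT-fed and from 4.04 to 8.67 (median 6.58) in MF-fed mice. The INT-fed mice lay close together, while MF replicates 1 and 6 overlapped with them. Its difference was -2.35 (SE 0.65, adjusted p = 0.324), and background limits its size, since 6 of 7 INT-fed mice lay under the intensity of 20. C-fed mice had a mean of 5.67 and CR-fed mice one of 3.63.

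Cidec, a partner of Cidea at the droplet, ranged from 6.20 to 9.26 (median 7.48) in INT-fed and from 6.19 to 10.78 (median 9.80) in MF-fed mice, with a difference of -1.66 (SE 0.60, adjusted p = 0.366). INT replicate 1 held the highest INT value for Cidec (9.26) and for Cidea (4.69), and thereby lay among the MF-fed mice. The perilipins Plin4 (-1.10), Plin3 (-0.48) and Plin2 (-0.29) were nominally lower. Hsd17b13, a droplet-bound retinol dehydrogenase, differed less but more evenly, from 10.70 to 10.99 in INT-fed and from 10.91 to 11.53 in MF-fed mice (-0.35, SE 0.10). The list median was negative in both array sets, at -0.23 in replicates 1 to 4 and -0.29 in replicates 5 to 7.

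Genes of fat uptake and of re-esterification to triglyceride pointed the same way in part. Cd36, the fatty acid translocase, ranged from 8.41 to 9.97 (median 9.15) in INT-fed and from 9.03 to 11.33 (median 10.91) in MF-fed mice (-1.22, SE 0.36, adjusted p = 0.327). Its mean was 10.06 in C-fed and 10.17 in CR-fed mice, so that the INT-fed mice had the lowest mean of the 4 diets. Mogat1, a monoacylglycerol acyltransferase, ranged from 3.66 to 5.25 (median 4.76) against 4.35 to 7.20 (median 6.18), a difference of -1.22 (SE 0.40, adjusted p = 0.351). Pparg, the nuclear receptor of fat storage (-0.51, SE 0.25), and Slc27a4, a fatty acid transporter (-0.24, SE 0.07), were nominally lower. In the same list the fatty acid binding protein Fabp5 (0.69, SE 0.23) and the transporter Slc27a1 (0.35) were nominally higher. Of 21 genes of triglyceride synthesis and lipolysis, 2 were nominally lower, Mogat1 and Mogat2 (-0.22), and 0 higher, against 6.02% and 4.85% of all genes.

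Nominal differences were few among genes that make and burn fatty acids. Of 9 genes of fatty acid elongation and desaturation, Hsd17b12 (-0.25) and Fads2 (-0.13) were nominally lower, against 6.02% of all genes. None of 15 genes of de novo lipogenesis was nominally different, against 10.9% of all genes. The same held for 26 genes of fatty acid oxidation and PPARa targets and for 33 subunits of oxidative phosphorylation. Fatty acid synthase, Fasn, ranged from 10.54 to 11.74 in INT-fed and from 10.92 to 11.20 in MF-fed mice, with a difference of -0.06 (SE 0.15). Here the range of the INT-fed mice was wider than that of the MF-fed mice. Pdk4, which restrains glucose oxidation in the fasted state, ranged from 6.75 to 9.85 (median 7.53) in INT-fed and from 7.17 to 9.75 (median 8.90) in MF-fed mice (-0.82, SE 0.44, adjusted p = 0.499).

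Cytochrome P450 genes of the Cyp2b family included the gene with the largest difference, Cyp2b9. Cyp2b10, a drug-metabolizing enzyme and a textbook target of the nuclear receptor CAR, ranged from 3.63 to 5.52 (median 4.58) in INT-fed and from 5.32 to 8.47 (median 6.63) in MF-fed mice. Only MF replicate 6 (5.32) lay below the highest INT-fed mouse. Its difference was -2.24 (SE 0.46, adjusted p = 0.224), and C- and CR-fed mice had means of 5.95 and 8.12. Cyp2b9, a Cyp2b enzyme of female liver, ranged from 4.69 to 9.59 (median 9.05) against 8.62 to 12.11 (median 11.84), a difference of -3.10 (SE 0.85, adjusted p = 0.324). INT replicates 2 and 7 were the low mice of their group, at 4.69 and 5.29.

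Cyp2b13, also a female liver gene, was under the intensity of 20 in 7 INT-fed and 4 MF-fed mice, and MF replicate 4 reached 7.00 (-1.43, SE 0.43). The Cyp2b genes are near copies of one another and may share signal on the array. Of the 16 CAR and PXR target genes tested, 3 were nominally lower, against 6.02% of all genes. Nominally higher were 2, Cyp2c54 (0.68) and Cyp2c37 (0.23), against 4.85% of all genes. Cyp3a11, a PXR target, differed by -0.17 (SE 0.09). The 3 lower genes were Cyp2b9, Cyp2b10 and Cyp2b13. Over the list, the mean deviation of a mouse from the 14-mouse mean was above that of every INT-fed mouse in 6 of 7 MF-fed mice. MF replicates 1 and 6 passed narrowly, at 0.03 and 0.06 against 0.02 in the highest INT-fed mouse. The 3 Cyp2b genes had the largest differences of the list and weigh most in this mean, while the list median was -0.14.

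Genes known to differ between male and female liver had higher means in INT-fed mice where male-biased and lower means where female-biased. Of 21 male-biased genes tested, 19 had a higher mean in INT, against 6659 of all 13603 genes, and 5 were nominally higher, against 4.85%. Of 16 female-biased genes, 14 had a lower mean, against 51% of all genes, and 4 were nominally lower, against 6.02%. Prom1 was the 1 gene nominally higher (0.17). Hsd3b5, a steroid dehydrogenase of male liver, ranged from 8.67 to 11.28 (median 10.81) in INT-fed and from 3.20 to 11.26 (median 8.00) in MF-fed mice, with a difference of 2.46 (SE 0.89, adjusted p = 0.365). MF replicates 3 and 4 were lowest, at 5.38 and 3.20, and MF replicates 1, 2 and 6 lay within the INT range. CR-fed mice had a mean of 3.60. Cyp7b1, an oxysterol hydroxylase of male liver, ranged from 10.79 to 11.70 against 9.20 to 11.37 (0.92, SE 0.28).

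Susd4 (0.81), C8b (0.60) and C6 (0.41), all of the complement system, completed the 5 male-biased genes. Slco1a1 ranged from 10.97 to 11.33 in INT-fed mice, and from 7.10 to 11.32 in MF-fed mice, a difference of 1.04 (SE 0.51, adjusted p = 0.463). The 7.10 was MF replicate 4, and without it the difference was 0.53. The male-biased Cyp4a12a (0.26) was not nominally different. Female-biased Slc22a27, a transporter that may share signal with a near copy, was nominally lower (-1.0, SE 0.39), and so was Hao2, a peroxisomal oxidase (-0.84, SE 0.27). Hao2 was under the intensity of 20 in 7 INT-fed and 2 MF-fed mice. The median of the female-biased list was -0.06 within replicates 1 to 4 and -0.77 within replicates 5 to 7, whereas that of the male-biased list was 0.30 and 0.26. Among 10 genes of growth hormone signalling Igfals (0.31) was nominally higher and Stat5b (-0.13) lower, 1 gene each against 4.85% and 6.02% of all genes.

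Genes of insulin and IGF signalling were led by Igfbp2, which binds insulin-like growth factors in the circulation and is low in obese mice. It ranged from 10.59 to 11.13 (median 10.75) in INT-fed and from 8.81 to 10.69 (median 9.88) in MF-fed mice, and only MF replicate 6 reached the INT range. The difference was 0.99 (SE 0.23, adjusted p = 0.281), with means of 10.35 in C-fed and 11.17 in CR-fed mice. The insulin receptor substrate Irs1 lay within 7.89 to 8.10 in INT-fed mice, but between 6.82 and 8.12 in MF-fed mice (0.43, SE 0.15). Of the 19 genes of the list, 3 were higher and 0 lower at an unadjusted p under 0.05, against 4.85% and 6.02% of all genes.

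Genes of acute phase proteins, secreted by hepatocytes during inflammation, had lower means in INT-fed mice. Of 29 members tested, 27 had a lower mean, against 51% of all genes, and 12 were nominally lower, against 6.02%. The interleukin-6 receptor Il6ra (0.26) was the 1 gene nominally higher, against 4.85% of all genes, and the list median was -0.20. Lcn2, a siderophore-binding protein, ranged from 7.93 to 11.78 (median 8.84) in INT-fed and from 8.58 to 13.10 (median 11.88) in MF-fed mice (-1.90, SE 0.61, adjusted p = 0.351). Saa2, a serum amyloid A, ranged from 7.59 to 11.84 (median 8.39) against 7.51 to 12.65 (median 10.94), a difference of -1.78 (SE 0.71, adjusted p = 0.389). In both genes INT replicates 1 and 7 were the high mice of their group and lay within the MF range, and MF replicate 6 was the lowest MF-fed mouse.

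Orm3, an orosomucoid, ranged from 4.95 to 7.15 (median 5.69) against 5.73 to 9.93 (median 7.90), a difference of -1.82 (SE 0.49, adjusted p = 0.324). Its near copies Orm2 and Orm1, which may share its signal, had differences of -1.36 and -0.22. Other members lower at an unadjusted p under 0.05 were the lipopolysaccharide receptor Cd14 (-0.59), the binding protein Lbp (-0.38), serum amyloid P, Apcs (-0.64), the fibrinogen chain Fga (-0.36), haptoglobin, Hp (-0.20), hemopexin, Hpx (-0.12), and the metalloreductase Steap4 (-0.58). The list median was -0.27 within replicates 1 to 4 and -0.05 within replicates 5 to 7.

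Metallothioneins, small proteins that bind zinc and copper, had lower means in INT-fed mice. Mt1 ranged from 9.14 to 11.66 (median 10.08) in INT-fed and from 9.43 to 12.61 (median 11.50) in MF-fed mice, with a difference of -1.07 (SE 0.44, adjusted p = 0.393). Mt2 ranged from 10.87 to 12.78 (median 11.31) against 10.90 to 13.40 (median 12.90), a difference of -0.91 (SE 0.41, adjusted p = 0.435). In both genes INT replicates 1 and 7 were the highest INT-fed mice and MF replicates 3 and 4 the highest MF-fed mice. Within replicates 1 to 4 the differences were -1.62 for Mt1 and -1.27 for Mt2, and within replicates 5 to 7 they were -0.35 and -0.44. The zinc importer Slc39a14 (-0.25) and the metal-responsive factor Mtf1 (-0.14) were lower, and the zinc exporter Slc30a1 (0.25) higher, at an unadjusted p under 0.05. Mt1 and Mt2 are similar in sequence, so that their probe sets may share signal.

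The starts of both genes are shown because these neighbours were high and low in the same mice. The windows run from 250 bases before to 50 after each RefSeq start in GRCm38.p6, on the plus strand, at chr8:94178839-94179138 for Mt1 and chr8:94172368-94172667 for Mt2. Capitals mark the letters TGCNCNC, searched on both strands. They are a looser form of TGCRCNC (R for A or G), the core of the metal response element. The metal-responsive factor MTF1 is known to bind that element.
Mt1: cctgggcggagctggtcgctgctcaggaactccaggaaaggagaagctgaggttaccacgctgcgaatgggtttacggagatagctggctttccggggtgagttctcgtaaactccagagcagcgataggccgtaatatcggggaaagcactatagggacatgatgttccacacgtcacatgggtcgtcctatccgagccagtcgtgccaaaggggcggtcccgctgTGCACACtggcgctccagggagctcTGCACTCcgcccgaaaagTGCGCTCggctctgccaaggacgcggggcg
Mt2: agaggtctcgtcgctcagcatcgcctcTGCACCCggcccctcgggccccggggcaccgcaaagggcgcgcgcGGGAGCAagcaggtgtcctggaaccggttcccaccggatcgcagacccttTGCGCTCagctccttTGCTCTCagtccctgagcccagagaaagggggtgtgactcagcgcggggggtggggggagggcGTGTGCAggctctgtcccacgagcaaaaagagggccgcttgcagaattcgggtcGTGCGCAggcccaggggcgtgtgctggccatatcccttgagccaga
The Mt1 window held 3 matches to the looser letters and the Mt2 window 6. Of the Mt2 matches, GGGAGCA and TGCTCTC have a T, read on the matching strand, where the core has R. At least 1 match was found in 63.2% of the 10750 genes tested that had a window, at least 3 in 11.8% and at least 6 in 0.428%. A match of letters is no evidence of binding.

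Many genes of macrophages in fat-laden tissue had lower means in INT-fed mice. Of 13 lipid-associated macrophage genes tested, 7 were lower and 1 higher (Fabp5) at an unadjusted p under 0.05, against 6.02% and 4.85% of all genes, with a list median of -0.24. Mmp12, a macrophage elastase, ranged from 4.55 to 5.15 (median 4.95) in INT-fed and from 4.51 to 8.05 (median 5.95) in MF-fed mice (-1.26, SE 0.51, adjusted p = 0.393). Trem2, a lipid receptor of these cells, was nominally lower (-0.40), and so was the galectin Lgals3 (-0.48). Gpnmb (-1.19) and the collagenase Mmp13 (-0.73) were under the intensity of 20 in 7 INT-fed mice each, so that background limits their differences. In this list the mean deviation of MF replicates 3 and 4 from the 14-mouse mean was 0.59 and 0.99, against -0.27 to -0.11 in the INT-fed mice.

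Of the 26 genes of Kupffer cells and macrophages, 23 had a lower mean, against 51% of all genes, and 5 were nominally lower, against 6.02% (list median -0.23). The 5 were Itgax (-0.60), Cx3cr1 (-0.38), Itgam (-0.27), Ccr2 (-0.40) and lysozyme, Lyz2 (-0.33), which recruited myeloid cells also express. Over the 26 genes, the mean deviation from the mean of all INT- and MF-fed mice was high in MF replicates 3, 4 and 7. These mice had 0.38, 0.46 and 0.30, against -0.37 to 0.06 in INT-fed mice. The other MF-fed mice lay within that INT range. The median mouse had -0.06 in MF and -0.007 in INT, so the lower INT means were not typical of single mice. The Kupffer cell genes Clec4f (0.04, SE 0.09), Timd4 (0.19, SE 0.17) and Vsig4 (-0.16, SE 0.15) were not nominally different, and neither were the pan-macrophage genes Adgre1 (-0.23) and Cd68 (-0.33). Among 15 chemokines, 4 were nominally lower and 1 higher, against 6.02% and 4.85% of all genes. Ccl3 (-0.81, SE 0.24), Cxcl1 (-0.97, but 0.26 within replicates 5 to 7), Ccl5 (-0.52) and Ccl6 (-0.49) were lower and Cxcl12 (0.30) higher. Ccl2 differed by -0.34 (SE 0.20).

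Matrix, growth arrest and division genes had mostly lower means as well. Of 31 matrix and fibrosis genes, 27 had a lower mean, against 51% of all genes, and 5 were nominally lower, against 6.02%, among them the collagens Col1a2 (-0.34) and Col3a1 (-0.25) and the matrix protein Sparc (-0.30). The matrix list had a median of -0.20 within replicates 1 to 4 and of 0.00 within replicates 5 to 7. Cdkn1a, which encodes the cell cycle inhibitor p21, ranged from 5.77 to 9.80 (median 6.57) in INT-fed and from 5.89 to 11.20 (median 10.09) in MF-fed mice (-1.66, SE 0.76, adjusted p = 0.444). Of 23 cell cycle genes, 5 were nominally lower, against 6.02% of all genes, and 0 higher, including the replication helicase subunit Mcm5 (-0.38, SE 0.11) and the proliferation marker Mki67 (-0.45). Of 12 heat shock genes, 3 were nominally lower, against 6.02% of all genes, namely Bag3 (-0.48), Hsp90aa1 (-0.32) and Hspb8 (-0.31). Of 17 p53 targets and growth arrest genes, 4 were nominally lower and 0 higher, against 6.02% and 4.85% of all genes. The 4 were Cdkn1a, Gas6 (-0.73), Ccng1 (-0.22) and Eda2r (-0.38), the last under the intensity of 20 in 3 INT-fed mice.

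**Figure D4:**
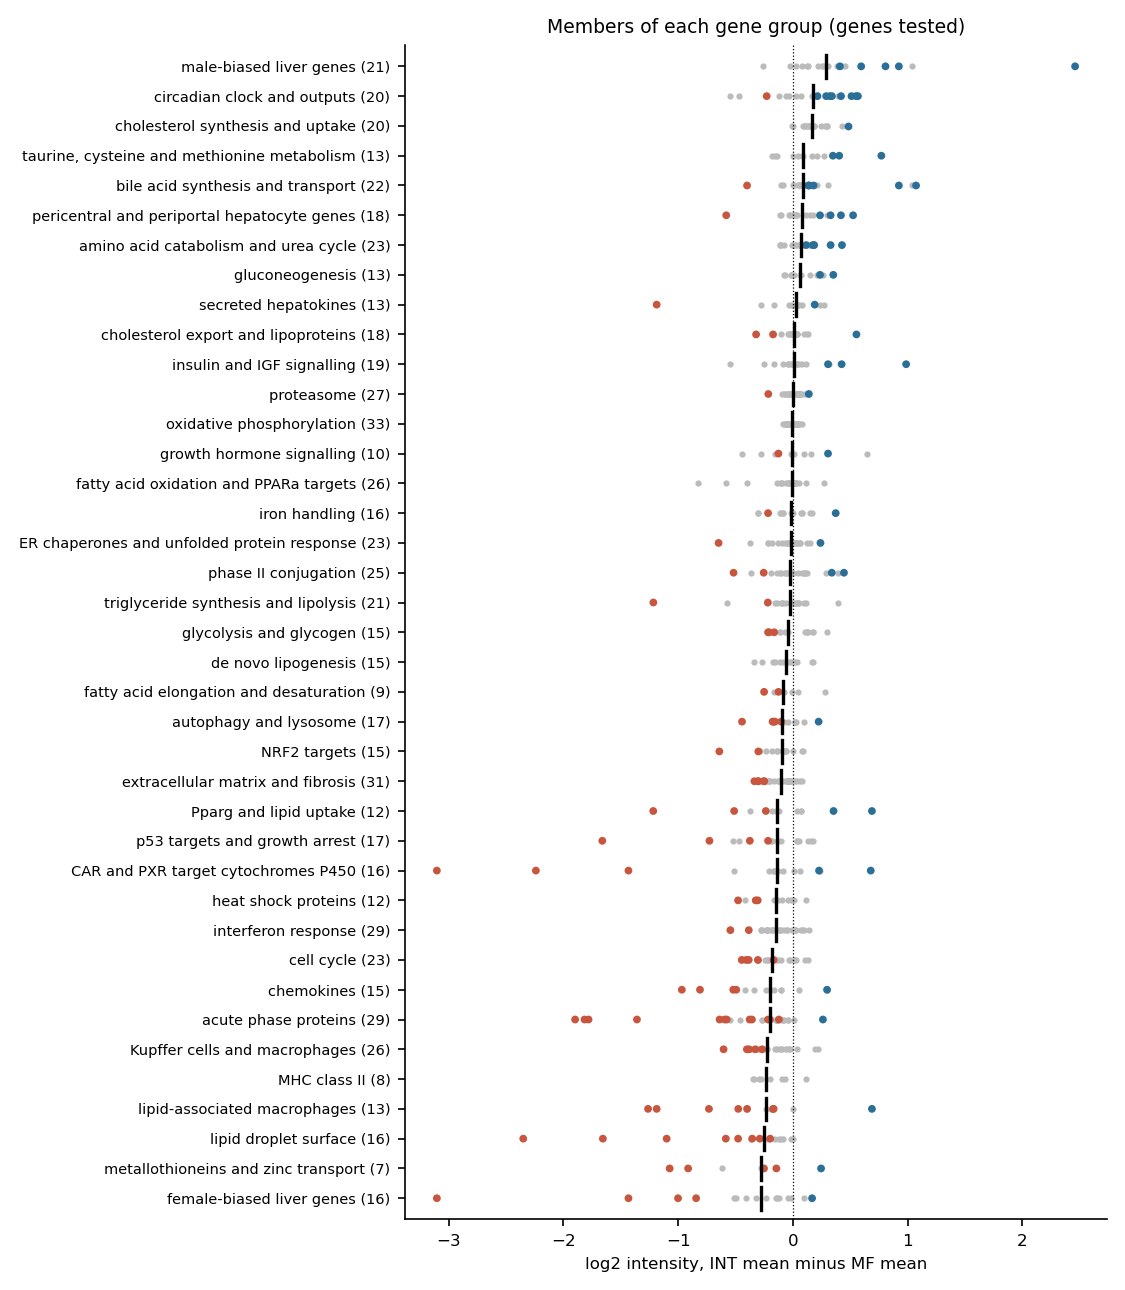
Differences of the mean log2 intensity (INT minus MF) of the members of 39 gene groups, with the number of genes tested in brackets, ordered by their median (black tick). Coloured points have an unadjusted p under 0.05, and the dotted line is the median of all 13603 genes; male-biased genes lie highest (median 0.29) and female-biased genes lowest (-0.28).

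Most bile acid genes had higher means in INT-fed mice. Cyp7a1, the rate-limiting enzyme of the classical pathway, ranged from 10.92 to 12.03 (median 11.15) in INT-fed and from 8.98 to 11.34 (median 10.44) in MF-fed mice. MF replicates 6 and 7 alone reached the INT range, and MF replicates 3 and 4 were lowest. Its difference was 1.07 (SE 0.28, adjusted p = 0.324), at 1.58 within replicates 1 to 4 and 0.40 within replicates 5 to 7. Of 22 genes of bile acid synthesis and transport, 19 had a higher mean, against 6659 of all 13603 genes, and 5 were nominally higher, against 4.85%. The 5 were Cyp7a1, Cyp7b1, the uptake transporter Slc10a1 (0.14), the export pump Abcc2 (0.14) and the nuclear receptor Nr5a2 (0.18). Abcc3, a pump of the basolateral membrane, was nominally lower (-0.40, SE 0.14).

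In cholesterol synthesis and uptake, 19 of 20 genes had a higher mean in INT-fed mice, against 6659 of all 13603 genes. Only the sterol carrier Stard4 (0.48, SE 0.20) was nominally higher, a share close to the 4.85% of all genes, and 0 were nominally lower. The list median of 0.17 was 0.27 within replicates 1 to 4 and 0.02 within replicates 5 to 7. INT replicates 3 and 5 held the highest means of this list, at 0.73 and 0.39 above the 14-mouse mean. Sort1, a sorting receptor of lipoproteins, was higher (0.55, SE 0.22).

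Genes of amino acid breakdown had small, mostly positive differences. Of 23 genes of amino acid catabolism and the urea cycle, 5 were higher and 0 lower at an unadjusted p under 0.05, against 4.85% and 6.02% of all genes, from Agxt, a glyoxylate transaminase (0.43, SE 0.15), to Otc of the urea cycle (0.12). Of 13 genes of taurine, cysteine and methionine metabolism, 3 were nominally higher and 0 lower, against the same shares of all genes. Cth, which makes cysteine from cystathionine, ranged from 10.77 to 11.30 (median 11.14) in INT-fed and from 10.35 to 10.99 (median 10.75) in MF-fed mice (0.40, SE 0.10, adjusted p = 0.320). Cbs, the enzyme before it (0.35, SE 0.10), and Csad of taurine synthesis (0.77, SE 0.32) were nominally higher. The gluconeogenic genes Pck1 (0.24) and G6pc (0.35, but -0.15 within replicates 5 to 7) were nominally higher, 2 of 13 genes against 4.85% of all genes. The medians of these 3 lists changed direction between the array sets. Medians within replicates 1 to 4 and within replicates 5 to 7 were 0.18 and -0.04 for amino acid catabolism, 0.11 and -0.02 for taurine, cysteine and methionine, and 0.15 and -0.11 for gluconeogenesis. Cth differed by 0.63 and 0.10 in the 2 sets, and Pck1 by 0.39 and 0.03.

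Of 20 genes of the circadian clock and its outputs, 8 were higher and 1 was lower in INT-fed mice at an unadjusted p under 0.05, against 4.85% and 6.02% of all genes, with a list median of 0.18. Per3 (0.51, SE 0.19) and Per1 (0.29, SE 0.11), repressors in the clock loop, were higher, and so were Nr1d2 (0.21), Ciart (0.55), Tef (0.32), Noct (0.57), Usp2 (0.34) and Ces2a (0.42). Npas2, a positive clock factor, was lower (-0.23, SE 0.08), though 5 of 7 INT-fed mice lay under the intensity of 20. Per1 ranged from 8.54 to 8.74 (median 8.62) in INT-fed and from 8.13 to 8.62 (median 8.24) in MF-fed mice, so that the INT-fed mice lay closer together. Arntl differed by -0.47 (SE 0.31). Noct differed by 0.95 within replicates 1 to 4 and by 0.06 within replicates 5 to 7. The hour of sacrifice of single mice was not used here, and its part in these values was not tested.

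**Figure D5:**
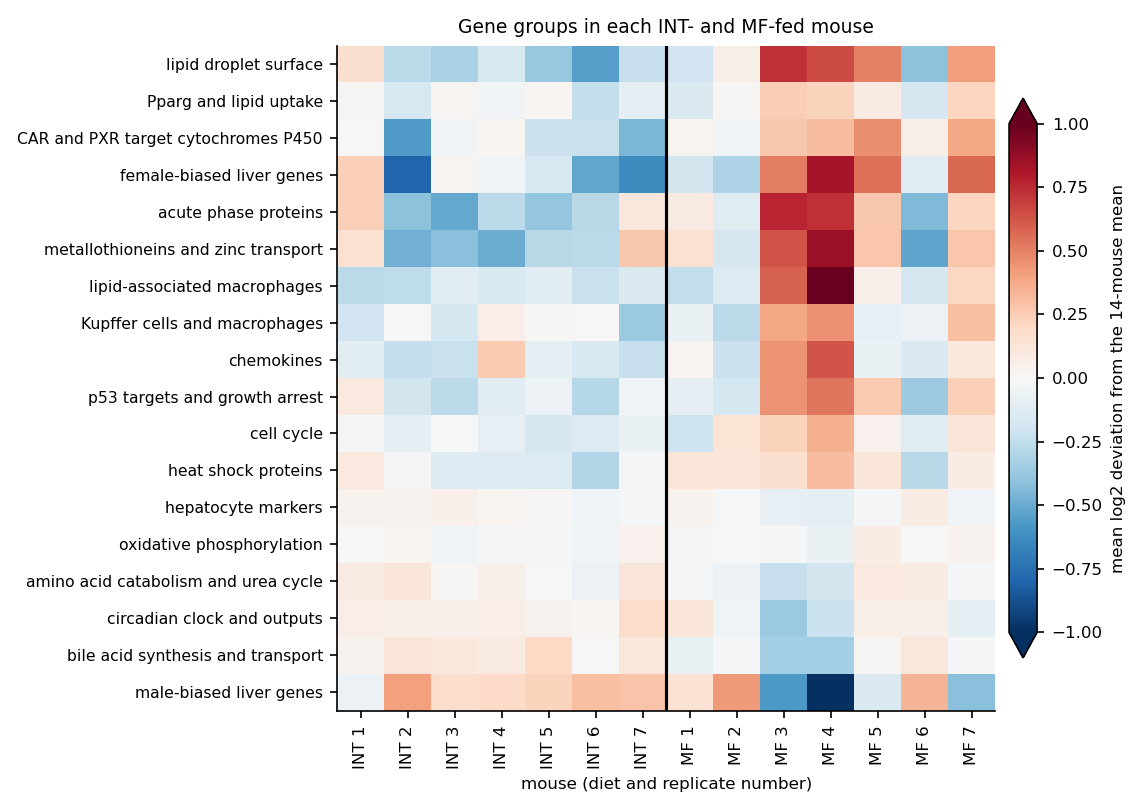
Mean deviation of the log2 intensity from the 14-mouse mean over the genes of 18 groups (rows) in each INT- and MF-fed mouse (columns). MF replicates 3 and 4 stand out in most groups, with 0.73 and 0.65 for lipid droplet genes and -0.58 and -1.31 for male-biased genes, while MF replicate 6 lies within the INT range in both, at -0.41 and 0.34.

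The remaining groups held 0 to 5 nominal genes in either direction, to be read beside 4.85% of all genes nominally higher and 6.02% nominally lower. Among 15 targets of the antioxidant factor NRF2 the quinone reductase Nqo1 (-0.64) and Srxn1 (-0.30) were nominally lower, and 0 were higher. Of 17 autophagy and lysosome genes 5 were lower, from the hexosaminidase Hexa (-0.44) to Lamp1 (-0.10), and the cholesterol exporter Npc1 (0.22) was higher. Of 29 interferon response genes 2 were lower (Ifi27l2a, -0.54, and Oasl2, -0.38), and of 15 glycolysis and glycogen genes 3, namely Gbe1 (-0.22), Ugp2 (-0.21) and Pfkl (-0.16). In both groups 0 were higher. The 18 genes of hepatocyte zones pool pericentral and periportal genes. Of them 4 were higher, namely Rnf43 (0.53), a brake on Wnt signals, Tbx3 (0.42), Hal (0.33) and Pck1 (0.24). The ammonium transporter Rhbg was lower (-0.58). Higher and lower nominal genes numbered 2 and 2 of 25 in phase II conjugation and 1 and 1 in 16 genes of iron handling, 13 hepatokines, 23 chaperones of the endoplasmic reticulum and 27 proteasome subunits. They numbered 1 and 2 of 18 in cholesterol export and lipoproteins and 0 and 0 of 8 in MHC class II.

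The panel that the study followed by Q-PCR in its mice was taken up here with earlier results of these arrays known, so that its direction is not independent evidence. Of the 12 panel genes, several of which are also counted in the lists above, 11 had a lower mean in INT-fed mice, against 51% of all genes. Nominally lower were 8, against 6.02% of all genes. Besides the genes above they include Timp1, an inhibitor of matrix proteases (-0.30, SE 0.14), under the intensity of 20 in 6 INT-fed and 5 MF-fed mice. Fgf21, a fasting hormone, was the exception on the arrays, ranging from 5.68 to 6.81 (median 6.08) in INT-fed and from 5.66 to 6.43 (median 6.19) in MF-fed mice (0.04, SE 0.16). The direction of this small array difference turned without INT replicate 1, MF replicate 1 or MF replicate 6. By Q-PCR the study reported a lower mean of Fgf21 in INT- than in MF-fed mice, without statistical significance. It also stated that its array and Q-PCR levels corresponded.

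Markers of other cell types were examined beside these groups, again with 4.85% of all genes nominally higher and 6.02% lower. Of 4 adipocyte markers tested 1 was nominally lower, Fabp4 (-0.58, SE 0.20), a gene that macrophages also express, and 0 were higher. The mean of these 4 markers ranged from -0.18 to -0.02 around the 14-mouse mean in INT-fed and from -0.23 to 0.40 in MF-fed mice, highest in MF replicates 3 and 4. Of 5 T cell markers Cd4 was higher (0.36), and of 3 neutrophil markers Csf3r was lower (-0.27). None of the 6 B cell, 4 NK cell, 10 endothelial, 8 stellate, 4 cholangiocyte, 2 exocrine pancreas, 2 erythroid and 3 skeletal muscle markers tested was nominally different. The part of other cell types in the differences above was not tested.

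The SD of the MF group was larger than that of the INT group in many of these genes, and over all 14 mice no test of the spread passed. The SD was larger in MF in 7775 of 13603 genes (57.2%). A gene-wise limma test on the deviations from the group medians gave 0 genes at an adjusted p under 0.05 (0%), with 411 wider in MF (3.02%) and 93 wider in INT (0.684%) at an unadjusted p under 0.05. Within replicates 1 to 4 the same test called 265 genes, within replicates 5 to 7 it called 0, and without MF replicate 7 it called 2. A count of 0 does not show that the spread was equal. By p, the genes most unequal towards MF included Klf6, an early response factor (SD 0.07 in INT-fed and 0.84 in MF-fed mice), Atf3, a stress factor (0.23 and 0.83), the coactivator Ppargc1a (0.11 and 0.53), the acetyltransferase family gene Nat8f1 (0.14 and 0.54) and Cyp2d13 (0.08 and 0.39). Mfsd4b1, Rap2a and Trem3, the last under the intensity of 20 in 7 INT-fed mice, ranked with them, as did Cidea and Hsd3b5. In the other direction stood Rnf144b (0.42 and 0.08), Dpep1, a renal-type dipeptidase (0.47 and 0.10), Mcrip2 (0.41 and 0.12), Flcn (0.32 and 0.12) and Rnf213 (0.32 and 0.09), with Ribc1, Adsl, B3gnt9, Wfs1 and Krba1. The summed variance over all genes was 1.42-fold larger in MF (log2 ratio of INT over MF -0.51), with p = 0.442 in a 2-sided exact permutation test over 3432 splits of the 14 mice. Hsd3b5 had an SD of 0.88 in INT-fed and of 3.03 in MF-fed mice.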

How the data were processed

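Liver RNA (100 ng a mouse, RIN above 8.0) of 27 mice was hybridised to Affymetrix Mouse Gene 1.1 ST arrays. The authors deposited a table of log2 expression values, normalized by robust multi-array averaging (RMA) per the labels, with 35556 probe sets. Raw intensities were not used, and the deposited values were not normalized again. The number of arrays limits the precision.

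Of the probe sets, 21218 had 1 gene, 1881 several and 12457 none in the platform annotation. The probe set of highest mean was kept for each of 18820 genes (18790 with a RefSeq symbol), of which 1386 had several. Genes above an intensity of 20 on at least 5 arrays were tested (13603), after the filter that the methods state. The methods applied it to probe sets redefined by Entrez gene, whereas the deposited table holds the probe sets of the array's maker, so that the genes tested are not the same set. The methods name no test across genes, so limma 3.58.1 (R 4.3.3) was fitted over the 4 diets on 27 arrays, with INT minus MF as contrast and Benjamini-Hochberg adjustment over all genes tested. Spread was tested by limma on absolute deviations from group medians, and over all genes by an exact permutation test. Both gene-wise tests were tested on simulated data, in which the test of the spread had little power. Python 3.11.15, numpy 2.4.6, pandas 2.3.3 and matplotlib 3.10.9 were also used.

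Mice were grouped by the diet in their labels. Each mouse was a separate sample. No pair of the 14 arrays shared more than 138 identical values. Named genes were the 12 of smallest p in each direction with means at least 1.5-fold apart, the 3 of smallest p, 2 members of smallest p for each gene list, the 12 genes of the study's Q-PCR, and the 10 most unequal in spread in each direction. All other genes named were chosen after their values were seen. The 52 gene lists (40 of pathways and 12 of cell markers, with 735 genes tested) and the comparison itself were chosen with earlier results of these data known. Promoter windows came from RefSeq (GRCm38.p6). Alternatives covered the intensity filter, scaling, probe set choice, variance model, array weights, blocks, array sets, the methods' one-way test and each mouse left out.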

Additional observations from a re-analysis of the deposited data

Results flagged for a closer look

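Each named gene was examined for a mouse standing apart from the other 6 of its diet by Dixon's test. In 382 groups of 7 mice (191 genes) 21 mice stood apart, where chance flags about 1 in 20 groups. Values are log2 intensities.

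Among INT-fed mice, replicate 1 was lowest in Hsd3b5 (8.67) and Stat5b (7.44) and highest in Pdk4 (9.85). Replicate 3 was highest in Fasn (11.74) and lowest in Ciart (8.43), and replicate 4 was lowest in Mb21d2 (6.82). Replicate 5 was highest in Slco2a1 (9.90), Cyp2c37 (12.06), Eda2r (5.26) and Cyp2d13 (11.33), and replicate 6 lowest in Atp6ap1 (9.84). Replicate 7 was lowest in Lgals3 (6.63), Timd4 (6.33) and Npas2 (3.95), the last under the intensity of 20, and highest in Fabp4 (6.81).

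Among MF-fed mice, replicate 4 was lowest in Slco1a1 (7.10) and highest in Dusp14 (6.16), Ccl5 (8.24) and Pfkl (8.01). Replicate 3 was lowest in Ciart (7.20) and replicate 5 highest in B3gnt9 (4.88).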

How the results depend on the processing

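The count of 0 genes called held under all alternatives except array quality weights (3 genes: Cyp2b10, Nckipsd and Iqcc) and leaving out MF replicate 6, so that it ranged from 0 to 29 with a mouse left out. Nominal genes ranged from 388 to 981 higher and from 484 to 1142 lower with a mouse left out. They numbered 1160 higher and 493 lower with arrays centred on their median, and 335 and 269 within replicates 5 to 7. In the methods' one-way test 156 higher and 200 lower had a Tukey p under 0.05, which is not an unadjusted p. The spread test called 0 genes, but 265 within replicates 1 to 4, and 0 to 2 with a mouse left out. The log2 ratio of the total spread ranged from -0.646 to -0.262 with a mouse left out and did not pass under any alternative. With the replicate number as a block, limma called 0 genes, with 735 nominally higher and 942 lower. Mice of the same number had deviations correlated at -0.223 to 0.219, and 1 of 7 correlated best with its own number, so that the numbers were not taken to pair the mice. No paired analysis was possible for the total spread because removing the mean of each pair leaves both diets the same variance. Within replicates 5 to 7 the difference turned for Clec4f (-0.0635), Timd4 (-0.17), Cxcl1 (0.26), G6pc (-0.15) and Fgf21 (-0.0842), and that of the spread for Ppargc1a (0.0415) and Mcrip2 (-0.0173). Fasn turned within replicates 1 to 4 (0.0608) and without INT replicate 5, with a range of -0.184 to 0.0166 over the mice left out, and Fgf21 turned without INT replicate 1, MF replicate 1 or MF replicate 6, with a range of -0.0680 to 0.119. None of these was called, and the cause was not tested. Over 191 named genes, all other values kept their direction.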
